A study of Mus musculus with 10 samples.

Results

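The adipogenic transcription factors described here are 10 genes, Pparg, Cebpa, Cebpb, Cebpd, Srebf1, Klf15, Rxra, Ebf1, Zfp423 and Nr3c1, each taken as the row of the deposited count table that carries its symbol. The table holds 56748 genes, of which 14270 had enough counts to be tested, and all 10 factors were among these. RNA-seq covered 5 control libraries (genotype Fam20c-flox) and 5 KO libraries (genotype Fam20c-flox/Adipoq-Cre) of primary mouse adipocytes, named Control 1 to 5 and KO 1 to 5. In the KO cells the Adiponectin promoter drives Cre, so that the floxed gene for the secretory kinase FAM20C is recombined once a cell becomes an adipocyte. Both groups carry the floxed allele and come from inguinal stromal vascular fraction (SVF) of male mice 6 to 8 weeks old. The cells were differentiated for 6 to 8 days. IBMX, dexamethasone, insulin and rosiglitazone were in the first medium, insulin and rosiglitazone in the next, and insulin alone in the last. The labels do not say whether the libraries of a group came from separate animals or cultures, so p-values measure only the spread between these libraries.

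Fat cell formation runs through a relay of transcription factors. C/EBPβ and C/EBPδ appear early, together with the glucocorticoid receptor NR3C1, and switch on PPARγ and C/EBPα, which then maintain each other and the genes of the mature adipocyte; PPARγ binds DNA as a partner of RXRα. ZFP423 and EBF1 mark and drive commitment of precursors, whereas SREBP1, the product of Srebf1, and KLF15 act on lipid and glucose genes of the maturing cell. While in the medium, compounds of the culture mix acted directly on several of these proteins in both groups. Rosiglitazone is a ligand of PPARγ, dexamethasone is a ligand of NR3C1, and IBMX raises cyclic AMP, a signal that induces Cebpb. The last medium held none of these compounds.

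Promoter sequences are shown for Cebpa, Pparg and Klf15, the most abundant factor, the factor with the smallest unadjusted p-value and the factor at the centre of the co-varying group described further on. Each is the 250 bases before a transcription start on the plus strand, from RefSeq on GRCm38.p6, written 5′ to 3′. Capitals mark 4 motifs searched on both strands, the E-box CACGTG, the letters TTGCGC that open the C/EBP palindrome TTGCGCAA, and the TATAAA and CCAAT boxes of core promoters.
Cebpa, chr7:35119043-35119292: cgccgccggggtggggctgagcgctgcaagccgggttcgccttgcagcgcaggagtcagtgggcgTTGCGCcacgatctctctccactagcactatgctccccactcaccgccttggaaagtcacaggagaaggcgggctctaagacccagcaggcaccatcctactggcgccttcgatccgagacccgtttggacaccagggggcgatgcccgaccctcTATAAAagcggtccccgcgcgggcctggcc
Pparg, middle start, chr6:115362099-115362348: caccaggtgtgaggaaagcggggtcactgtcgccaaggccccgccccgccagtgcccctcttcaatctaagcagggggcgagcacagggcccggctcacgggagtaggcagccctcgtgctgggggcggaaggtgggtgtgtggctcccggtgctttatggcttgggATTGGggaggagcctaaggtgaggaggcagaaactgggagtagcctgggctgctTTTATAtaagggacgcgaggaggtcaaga
Pparg, downstream start, chr6:115421816-115422065: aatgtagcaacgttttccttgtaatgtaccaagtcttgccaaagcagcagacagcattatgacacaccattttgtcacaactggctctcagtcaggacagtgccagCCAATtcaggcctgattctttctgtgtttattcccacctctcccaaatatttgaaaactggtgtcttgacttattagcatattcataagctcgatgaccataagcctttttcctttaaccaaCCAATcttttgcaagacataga
Klf15, chr6:90462326-90462575: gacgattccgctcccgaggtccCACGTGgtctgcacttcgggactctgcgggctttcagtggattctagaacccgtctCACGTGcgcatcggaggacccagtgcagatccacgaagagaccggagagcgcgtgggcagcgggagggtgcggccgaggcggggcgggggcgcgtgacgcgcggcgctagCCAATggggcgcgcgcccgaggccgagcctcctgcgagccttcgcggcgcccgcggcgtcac

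In the Cebpa promoter the TTGCGC match begins 185 bases and the TATAAA match 30 bases before the first transcribed base. RefSeq lists 3 Pparg promoters. The most upstream, chr6:115360894-115361143, holds none of the 4 motifs and is not shown. The middle Pparg promoter holds a TATAAA match and a CCAAT match, both on the opposite strand, 29 and 83 bases before the start, while the downstream Pparg promoter holds 2 CCAAT matches and none of the other 3 motifs. Klf15 has 2 E-boxes, 228 and 172 bases before its start, and 1 CCAAT box 62 bases before it. In all, 15 promoters of 8 of the 10 factors were searched, and CCAAT was in 5 of them, against 33.8% of all 32851 promoters. TATAAA was in 2 of the 15 (12.4% of all promoters), TTGCGC in 2 (5.34%) and CACGTG in 1 (6.02%). The full palindrome TTGCGCAA (0.164% of all promoters), the glucocorticoid receptor motif ACANNNTGT (5.84%) and the direct repeat bound by PPARγ with RXRα (0.0335%) were in 0 of the 15. These matches describe letters in short windows and say nothing on binding.

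The libraries held 18949106 to 26237825 counts, and each factor rested on 328 to 14508 counts per library. Fam20c itself was lower in every KO library (log2 fold change -0.49; quasi-likelihood test of edgeR, Benjamini-Hochberg adjusted p = 0.0137). The adipocyte marker Adipoq averaged 1759 ± 81.2 CPM (counts brought to 1 library size by TMM factors; SD, n = 5) in control libraries and 1820 ± 41.5 CPM (SD, n = 5) in the KO libraries. Cells other than adipocytes were represented too. At an adjusted p under 0.05 from edgeR, 9 of 12 endothelial markers and 5 of 12 stromal and progenitor markers were lower in KO. Of all genes tested, 1.86% were lower at this limit. The endothelial markers summed to 170.1 to 214.1 CPM in control and 74.2 to 111.7 CPM in KO libraries. Sums of the stromal and progenitor markers were 5121 to 6603 CPM in control and 4276 to 5069 CPM in KO libraries. The collagen gene Col3a1 alone made up 43.6% of these sums. Endothelial markers Pecam1 and Cdh5 were detected, at log2 fold changes of -1.23 and -1.27. In bulk RNA, fewer cells of a type and less RNA per cell cannot be told apart, and the part of these markers in the values of the adipogenic factors was not tested. Control 4 and KO 1 stood apart from the other 8 libraries on the first principal component (23.5% of the variance). Some values, among them the correlations between factors, are therefore also given without 1 or both of these libraries.

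None of the 10 factors passed the adjusted p limit of 0.05 in KO adipocytes by edgeR, by DESeq2 or by limma voom, against 2.17% of all genes tested by edgeR (0.308% higher and 1.86% lower in KO). The median log2 fold change of the factors was 0.05, and that of all genes tested was -0.0008; 7 factors had a value above 0 and 3 below, although Srebf1, Zfp423 and Nr3c1 were so close to 0 that their sign changed with the scaling or the tool. At an unadjusted p-value under 0.05, Pparg and Cebpd were higher in KO by each of the 3 tools, that is 2 of 10 factors, whereas 11.9% of all genes reached this p in either direction 4.43% in the higher and 7.46% in the lower direction. For 0 of 10 factors did the KO libraries lie wholly above or below the control libraries, which was the case for 3.97% of all genes (1.31% above and 2.66% below). The 95% intervals of the fold changes ran at most from 0.905-fold to 1.32-fold, so a change of 1.5-fold lay outside the interval of each factor. Intervals of 8 factors included no change.

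**Figure D1:**
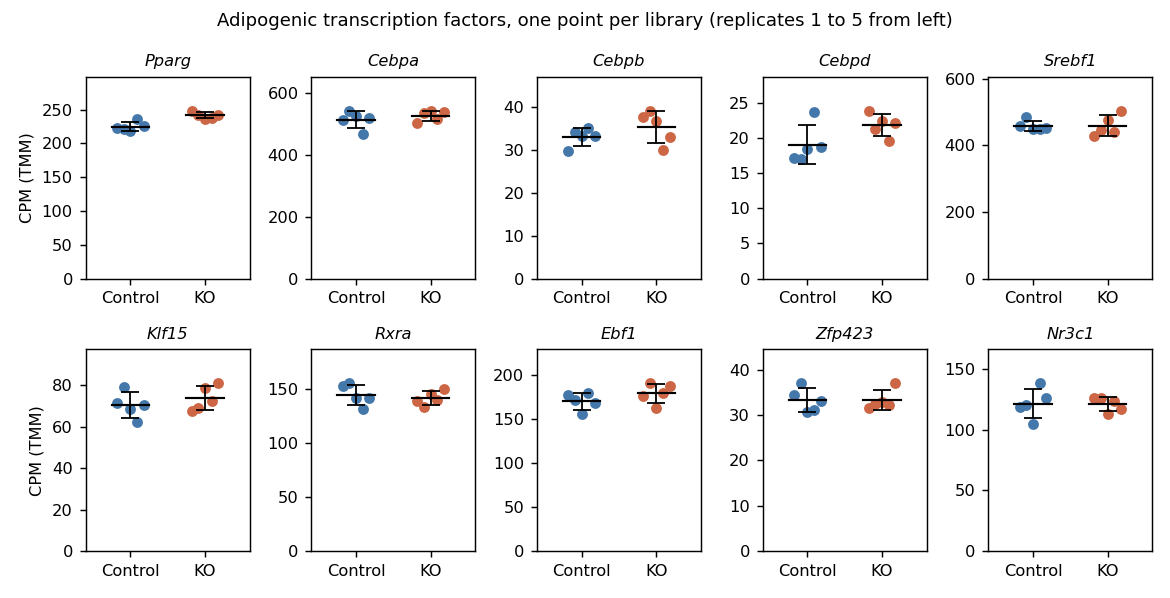
Level of each adipogenic factor in CPM (linear axis from 0), with 1 point per library, control in blue and KO in orange, and bars for the mean and SD of 5 libraries. The 2 groups overlap in every panel, and 4 of the 5 KO points of Pparg lie above all control points.

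The early factors of the relay, Cebpb and Cebpd, both had higher group means in KO adipocytes, and neither passed the adjusted limit. C/EBPβ and C/EBPδ are leucine zipper proteins that respond to cyclic AMP and glucocorticoid at the onset of differentiation. Cebpd (ENSMUSG00000071637.6, chr16:15887286-15891031, plus strand, GRCm38) had 17.2, 17.1, 18.4, 23.8 and 18.8 CPM in Control 1 to 5 and 23.9, 21.3, 22.5, 19.6 and 22.2 CPM in KO 1 to 5. Control 4 was the exception in its group: the other 4 control libraries lay below each KO library, whereas Control 4 exceeded all KO libraries except KO 1. Control averaged 19.1 ± 2.75 CPM and KO 21.9 ± 1.61 CPM (SD, n = 5 each), and the log2 fold change was 0.20 with a 95% interval of 0.0035 to 0.40 (quasi-likelihood test of edgeR, Benjamini-Hochberg adjusted p = 0.408; exact permutation test, 2-sided, p = 0.0794). Without Control 4 the log2 fold change was 0.29, with an adjusted p of 0.036 from the same edgeR test, the only one of 18 alternatives in which Cebpd, or any of the factors, passed the limit. Cebpd shares 562 exon bases with Spidr on the opposite strand (log2 fold change 0.13, adjusted p = 0.811 from edgeR), and the library kit does not mark strand.

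Cebpb (ENSMUSG00000056501.4, chr2:167688915-167690418, plus strand) had 29.6, 34.2, 33.1, 35.1 and 33.1 CPM in Control 1 to 5 and 37.6, 39.1, 36.8, 30.0 and 32.9 CPM in KO 1 to 5. The KO libraries were split, with KO 1 to 3 above all control libraries and KO 4 and KO 5 inside the control range. The log2 fold change was 0.09 with an interval of -0.06 to 0.25 (adjusted p = 0.706 from edgeR). The SD between libraries was 2.07 CPM in control and 3.73 CPM in KO, against a difference of means of 33.0 to 35.3 CPM. Cebpb also shares 312 exon bases with an opposite-strand gene, Tmem189, which was not analysed here.

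NR3C1 is the receptor through which dexamethasone acts. Nr3c1 (ENSMUSG00000024431.16) had 118.8, 119.9, 104.5, 138.4 and 125.8 CPM in Control 1 to 5 and 125.8, 126.3, 113.1, 123.5 and 117.3 CPM in KO 1 to 5. Its lowest and highest values were both control libraries, Control 3 and Control 4, and the 5 KO libraries fell between them. The group means were 121.5 ± 12.3 CPM and 121.2 ± 5.80 CPM (SD, n = 5 each), giving a log2 fold change of -0.0032 with an interval of -0.14 to 0.14 (adjusted p = 0.997 from edgeR).

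Among the core factors, Pparg had the smallest p-value of all 10 genes, with a difference of 7.38% between group means, while Cebpa and Rxra differed by less than the spread between libraries. PPARγ is the nuclear receptor without which fat cells do not form, and the drug target of rosiglitazone. Pparg (ENSMUSG00000000440.13, chr6:115360951-115490399, plus strand) had 222.4, 220.8, 218.5, 237.0 and 226.6 CPM in Control 1 to 5 and 248.5, 242.6, 236.8, 238.0 and 242.3 CPM in KO 1 to 5. The overlap came from a single pair, KO 3 just below Control 4, and the other 4 KO libraries were above all control libraries. The means were 225.0 ± 7.29 CPM and 241.6 ± 4.62 CPM (SD, n = 5 each), giving a log2 fold change of 0.10 with an interval of 0.03 to 0.18 (quasi-likelihood test of edgeR, unadjusted p = 0.0122, Benjamini-Hochberg adjusted p = 0.218; exact permutation test, 2-sided, p = 0.0159). By edgeR's unadjusted p-value Pparg was number 796 of the 14270 genes tested. Over 18 alternatives its log2 fold change stayed between 0.10 and 0.12 and its adjusted p between 0.0509 and 0.545. The count sums over 7 annotated starts, so the PPARγ1 and PPARγ2 transcripts, which begin at different starts, are not separated.

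C/EBPα, the partner that sustains Pparg expression in mature fat cells, was encoded by the most abundant of these mRNAs. Cebpa (ENSMUSG00000034957.11, chr7:35119293-35121928, plus strand) had 515.2, 544.0, 526.0, 468.9 and 521.5 CPM in Control 1 to 5 and 503.7, 535.6, 543.3, 518.3 and 538.3 CPM in KO 1 to 5. Both the lowest value (Control 4) and the highest (Control 2) were control libraries. The log2 fold change was 0.04 with an interval of -0.06 to 0.13 (adjusted p = 0.856 from edgeR), and the means were 515.1 ± 28.0 CPM and 527.9 ± 16.4 CPM (SD, n = 5 each).

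Rxra (ENSMUSG00000015846.16, chr2:27676440-27762957, plus strand), which encodes the receptor that pairs with PPARγ on DNA, had 152.7, 155.7, 141.4, 132.0 and 141.7 CPM in Control 1 to 5 and 138.7, 133.5, 145.6, 140.1 and 150.2 CPM in KO 1 to 5. Every KO library lay inside the control range. The log2 fold change was -0.03 with an interval of -0.14 to 0.08 (adjusted p = 0.900 from edgeR). As Pparg was slightly higher and Rxra slightly lower, the ratio of Rxra to Pparg CPM had a median of 0.647 in control and 0.589 in KO libraries, with overlapping ranges of 0.557 to 0.705 and 0.550 to 0.620. The ratio of Cebpa to Pparg overlapped as well, with medians of 2.32 and 2.21.

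The commitment factors Zfp423 and Ebf1 did not pass the limit either. ZFP423 is a zinc finger protein of committed preadipocytes, and Zfp423 (ENSMUSG00000045333.16, chr8:87661810-87959595, minus strand) had 34.5, 37.1, 30.8, 31.2 and 33.1 CPM in Control 1 to 5 and 31.6, 32.5, 33.0, 32.3 and 37.1 CPM in KO 1 to 5. KO 5 was well above the other KO libraries and level with the highest control library, Control 2. The log2 fold change was -0.0026 with an interval of -0.14 to 0.13, between means of 33.4 ± 2.58 CPM and 33.3 ± 2.17 CPM (SD, n = 5 each).

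EBF1 acts early in the lineage and remains expressed in mature fat cells. Ebf1 (ENSMUSG00000057098.15, chr11:44617317-45008091, plus strand) had 176.6, 171.3, 155.2, 179.8 and 167.6 CPM in Control 1 to 5 and 176.1, 190.7, 162.7, 178.9 and 187.3 CPM in KO 1 to 5. KO 2 and KO 5 were above all control libraries, while the third library of each group was the lowest of its group. The means were 170.1 ± 9.58 CPM and 179.1 ± 11.0 CPM (SD, n = 5 each), giving a log2 fold change of 0.07 with an interval of -0.04 to 0.19 (adjusted p = 0.663 from edgeR).

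The metabolic factors Srebf1 and Klf15 varied between libraries of a group by more than between the groups. SREBP1 drives the genes of fatty acid synthesis, and Srebf1 (ENSMUSG00000020538.16, chr11:60199089-60222581, minus strand) had 457.4, 484.9, 449.2, 450.7 and 454.1 CPM in Control 1 to 5 and 428.6, 445.2, 477.4, 441.9 and 504.6 CPM in KO 1 to 5. KO libraries lay on both sides of the controls, with KO 1, KO 2 and KO 4 below all of them and KO 5 above all of them. The means were 459.2 ± 14.7 CPM and 459.5 ± 30.9 CPM (SD, n = 5 each), giving a log2 fold change of 0.0008 with an interval of -0.10 to 0.11 (adjusted p = 0.999 from edgeR). Its count sums over 12 annotated starts, so SREBP1a and SREBP1c transcripts are not separated, and 109 exon bases are shared with Rai1 on the opposite strand (log2 fold change -0.11, adjusted p = 0.585 from edgeR).

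KLF15 is a Krüppel-like factor induced by glucocorticoid that acts on glucose uptake and amino acid use in fat cells. Klf15 (ENSMUSG00000030087.12, chr6:90462576-90475238, plus strand) had 71.7, 79.2, 68.8, 62.1 and 70.8 CPM in Control 1 to 5 and 67.8, 69.2, 78.9, 72.6 and 81.2 CPM in KO 1 to 5. Only KO 5 exceeded the highest control library, and no KO library was below the lowest. The log2 fold change was 0.07 with an interval of -0.08 to 0.22 (adjusted p = 0.802 from edgeR).

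**Figure D2:**
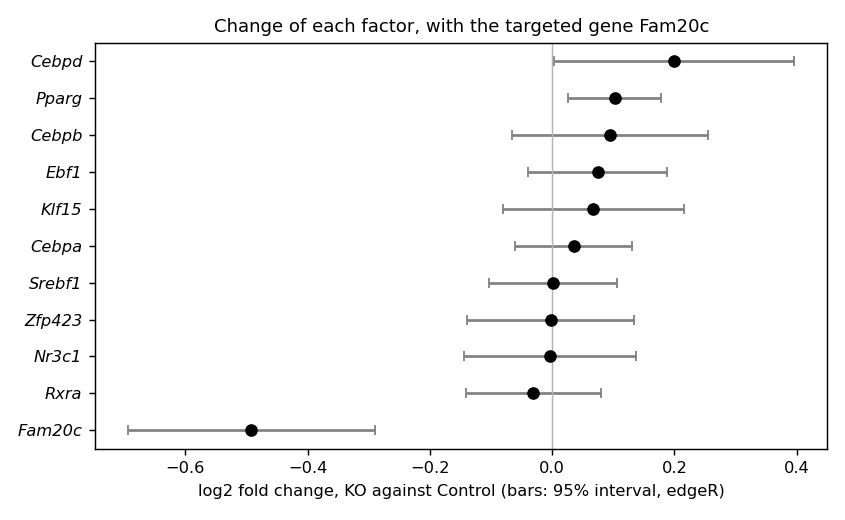
Log2 fold change of KO against control for each adipogenic factor and for the targeted gene Fam20c (horizontal axis), with the 95% interval from edgeR as bars. The intervals of Pparg and Cebpd lie just above 0, those of the other 8 factors include 0, and Fam20c lies at -0.49.

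Per exon length, the factors spanned a wide range of mRNA levels. Cebpa led at 195.4 ± 10.6 RPKM (CPM per kilobase of exon; SD, n = 5) in control and 200.2 ± 6.24 RPKM in KO adipocytes, a level above that of 98.5% of the genes tested. Srebf1 and Pparg followed with means over all 10 libraries of 81.5 and 79.0 RPKM, and their libraries overlapped, so their order is not settled. Rxra, Klf15 and Cebpb came next at 26.2, 25.9 and 22.7 RPKM, each overlapping its neighbour. Ebf1 and Nr3c1 were at 17.9 and 15.8 RPKM and overlapped. At the low end were Zfp423 at 5.94 RPKM and Cebpd at 5.46 RPKM, again with overlapping libraries, which still exceeded 58.8% and 56.8% of the genes tested. The 10 libraries of Cebpa, of the Srebf1 and Pparg pair, of the next 3, of Ebf1 and Nr3c1, and of the last 2 formed 5 steps whose neighbours did not overlap. These steps depend on the length chosen, since the longest annotated transcript, in place of all exons, put Ebf1 at 29.2 RPKM, level with Rxra.

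**Figure D3:**
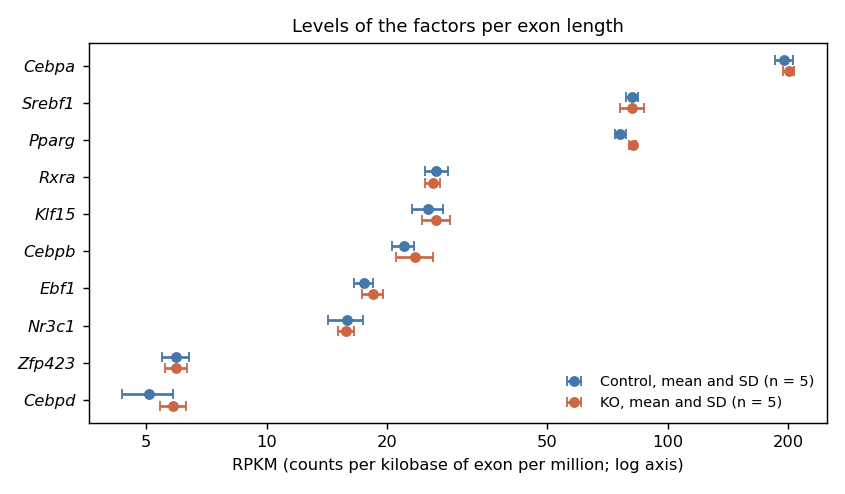
Level of each factor in RPKM on a log axis, control in blue and KO in orange, as the mean and SD of 5 libraries. Cebpa stands highest at about 198 RPKM over all libraries, and Cebpd lowest at 5.46 RPKM.

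Within the groups, some factors moved up and down together from library to library. With each group's mean subtracted from log2 CPM, 11 of the 45 pairs of factors had a Pearson correlation above 0.6 over the 10 libraries. For 6 pairs it was below -0.6. These are descriptions over libraries that share depth and composition, and the share among pairs of other genes was not counted. Without Control 4 and KO 1, 12 pairs had a correlation above 0.6, among them 9 of the 11, and 0 had one below -0.6, the lowest being -0.41. Klf15, Rxra, Zfp423 and Srebf1 formed a co-varying group. Values of r were 0.91 for Klf15 and Rxra, 0.84 for Klf15 and Srebf1 and 0.84 for Klf15 and Zfp423. The other pairs had 0.83 for Rxra and Zfp423, 0.83 for Srebf1 and Zfp423 and 0.70 for Srebf1 and Rxra. Control 2 and KO 5 were above their group mean for all 4 of these genes, and Control 4 and KO 1 were below it. Without Control 4 and KO 1 these correlations were 0.91, 0.93, 0.83, 0.83, 0.84 and 0.83 over 8 libraries. Cebpa, not counted in the group, had r = 0.83 with Klf15, 0.69 with Rxra, 0.58 with Zfp423 and 0.56 with Srebf1 over 10 libraries. Over 8 libraries these values were 0.64, 0.38, 0.47 and 0.68.

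Pparg and Cebpa, which maintain each other in mature fat cells, went in opposite directions across libraries (r = -0.83), as did Cebpa and Cebpd (r = -0.74). Both relations rested on Control 4 and KO 1, where Cebpa was 0.13 and 0.07 below its group mean on the log2 scale and Cebpd was 0.33 and 0.13 above it. Without these libraries r was -0.15 for Pparg and Cebpa, 0.36 for Cebpa and Cebpd, and 0.22 for Pparg and Cebpd (0.84 over all 10). Pparg and Nr3c1, in contrast, had r = 0.84 over 10 and 0.73 over 8 libraries.

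**Figure D4:**
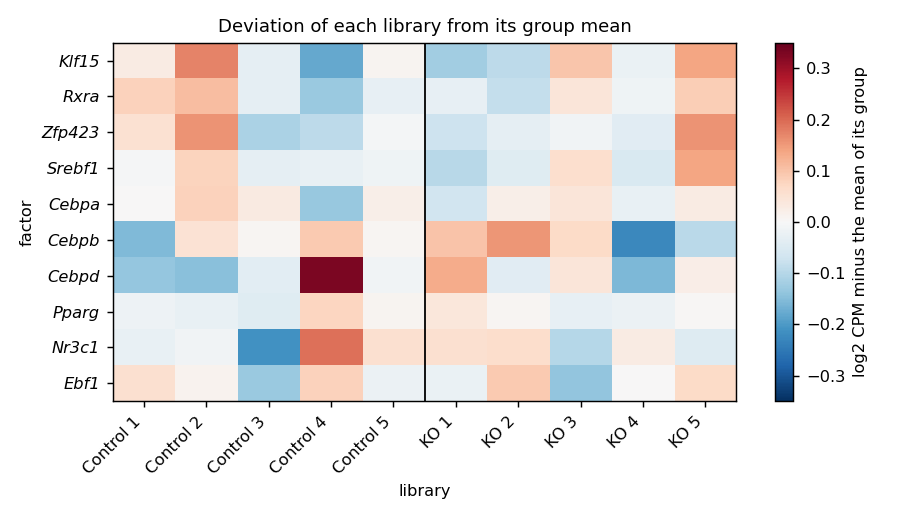
Deviation of each library (columns) from the mean of its group for each factor (rows), in log2 CPM, red above and blue below the mean, with a line between control and KO libraries. The top 4 rows, Klf15, Rxra, Zfp423 and Srebf1, change colour together, and Control 4 shows the largest deviation, 0.33 for Cebpd.

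The genes whose libraries followed each factor most closely were sought among 9303 genes whose log2 CPM averaged 3 or more, again after subtracting group means over 10 libraries. Ebf1 was followed by Rreb1 and Cdk12 (r = 0.99 each), and Pparg by B4galt5 (0.99) and Acer2 (0.98), which encode a galactosyltransferase and a ceramidase. Klf15 was followed by Reep6 (0.96) and by Pnpla2, the gene for adipose triglyceride lipase (0.96), and Srebf1 by Plin5, a lipid droplet protein (0.96), and Mpnd (0.96). For Nr3c1 the closest genes were Zfp654 (0.98) and Ano6 (0.97), for Cebpa Med9 (0.97) and Cdk5rap3 (0.96), and for Cebpd the receptor gene Fgfr1 (0.95) and Sh3glb2 (0.94). Dgkd and Mroh1 followed Zfp423 (0.95 and 0.93), Ipo13 and Naif1 followed Rxra (0.95 each), and Fam118a and Zfp212 followed Cebpb (0.94 and 0.90). Such values are the largest of many and carry no test.

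Other regulators of the relay were examined as lists. Of 14 tested relatives and dimer partners, such as other C/EBP, PPAR, RXR and Krüppel-like genes, 0 passed the limit in edgeR and 3 had an unadjusted p-value under 0.05, against 11.9% of all genes (DESeq2 and limma voom each called 2 higher); the median log2 fold change was 0.05. Cebpg, a C/EBP protein that pairs with the others, went from 121.5 ± 4.68 to 137.0 ± 6.83 CPM (SD, n = 5 each) with no overlap of the libraries, a log2 fold change of 0.17 (adjusted p = 0.0728 from edgeR). Klf9, a glucocorticoid-responsive relative of Klf15, had 247.2 ± 26.5 and 287.9 ± 12.8 CPM (SD, n = 5 each), giving a log2 fold change of 0.22 (adjusted p = 0.139 from edgeR).

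Among 27 other activators of adipogenesis, 2 were higher and 1 lower at an unadjusted p-value under 0.05 from edgeR. Over all genes, 4.43% were higher and 7.46% lower at this p. DESeq2 and limma voom each called 2 activators higher, and the median log2 fold change was 0.02. Past the adjusted limit of edgeR, 1 rose and 0 fell (0.308% and 1.86% of all genes). The 1 was Hmga2, a chromatin protein that promotes preadipocyte growth and fat mass, with 3.99, 4.69, 5.78, 8.46 and 6.97 CPM in Control 1 to 5 and 9.47, 10.8, 10.1, 9.71 and 11.7 CPM in KO 1 to 5. All KO libraries exceeded all control libraries, and the log2 fold change was 0.79 with an interval of 0.44 to 1.15 (adjusted p = 0.0235 from edgeR); it passed the limit in 5 of the 10 fits that left out 1 library. Of 18 tested repressors 0 passed the limit in edgeR and 1 was lower at an unadjusted p-value under 0.05, against 7.46% of all genes (0 calls by DESeq2 and by limma voom), with a median of 0.0030. That gene was Hes1, a Notch effector, with 6.23 ± 0.750 and 4.78 ± 0.596 CPM (SD, n = 5 each; log2 fold change -0.38, adjusted p = 0.135 from edgeR), and next came Nr2f2, the gene for COUP-TFII, at 23.4 ± 1.16 and 21.4 ± 1.55 CPM (adjusted p = 0.448 from edgeR).

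Genes that the factors are known to induce were examined next. Of 26 genes that PPARγ induces, 19 had a log2 fold change above 0 (49.7% of all genes tested), and the median was 0.04. At an unadjusted p-value under 0.05 from edgeR, 4 were higher and 1 lower, against 4.43% and 7.46% of all genes. DESeq2 called 3 higher and limma voom 2. Past the adjusted limit of edgeR, 0 rose and 1 fell (0.308% and 1.86% of all genes). The 1 that fell was Gpihbp1, which carries lipoprotein lipase on capillary endothelium, from 11.7 ± 1.06 to 4.85 ± 0.982 CPM (SD, n = 5 each), giving a log2 fold change of -1.26 (adjusted p = 0.000136 from edgeR), beside the 9 of 12 endothelial markers that fell. Cidea, a lipid droplet protein of thermogenic fat cells, had 47.0, 54.1, 51.5, 87.2 and 60.7 CPM in Control 1 to 5 and 105.2, 83.8, 81.7, 83.6 and 97.6 CPM in KO 1 to 5. As with Cebpd, Control 4 alone reached into the KO range, and the log2 fold change was 0.59 with an adjusted p of 0.0586 from edgeR. Without Control 4 it was 0.76, with an adjusted p of 0.000605 from edgeR. This was the only 1 of the 10 fits leaving out 1 library in which Cidea passed the limit. Over these fits its log2 fold change ran from 0.51 to 0.76 and its adjusted p from edgeR up to 0.15. The sums of the 10 factors and of each other list of regulators or induced genes overlapped between the groups. For the glucocorticoid-induced genes they were 5867 to 7293 CPM in control and 7160 to 8044 CPM in KO. By contrast, the summed level of the 26 PPARγ-induced genes did not overlap (57357 to 59065 CPM in control and 60128 to 61790 CPM in KO). Fabp4, the fatty acid binding protein, made up 36.4% of this last sum and most of its difference between the groups. Its own libraries overlapped, with Control 5 at 21356.5 CPM and KO 5 at 21299.7 CPM. Fabp4 had a mean of 20805 ± 356.6 CPM in control and 22552 ± 944.6 CPM in KO libraries (SD, n = 5 each; log2 fold change 0.12, adjusted p = 0.386 from edgeR).

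Of 12 genes that C/EBP factors induce, 0 passed the limit in edgeR, 4 were higher at an unadjusted p-value under 0.05, against 4.43% of all genes (DESeq2 called 1 and limma voom 0), and the median was 0.06. Hp, the acute-phase protein haptoglobin, had 1829 ± 169.2 and 2169 ± 150.3 CPM (log2 fold change 0.25, adjusted p = 0.102 from edgeR), and Agt, angiotensinogen, had 348.4 ± 44.6 and 411.9 ± 24.3 CPM (log2 fold change 0.24, adjusted p = 0.179 from edgeR; SD, n = 5 each). Of 18 lipogenic genes that SREBP1 induces, 2 were lower and 1 higher at an unadjusted p-value under 0.05 from edgeR. Over all genes, 7.46% were lower and 4.43% higher at this p. DESeq2 and limma voom each called 1 of the 18 lower and 1 higher, and the median was -0.0067. Past the adjusted limit of edgeR, 1 fell and 0 rose (1.86% and 0.308% of all genes). The 1 was Me1, malic enzyme, which supplies NADPH for lipid synthesis, with 574.2, 554.1, 593.3, 677.6 and 624.3 CPM in Control 1 to 5 and 540.2, 494.4, 455.5, 532.3 and 486.8 CPM in KO 1 to 5. Its groups did not overlap (log2 fold change -0.27, adjusted p = 0.042 from edgeR), but 65.3% of the 31-base words of the pseudogene Gm7049 also occur in Me1, so counts of the pair are uncertain. Me1 passed the limit in 2 of the 10 fits that left out 1 library, with adjusted p-values of 0.0295 to 0.122. Thrsp, a lipogenic regulator, was 237.3 ± 14.2 and 273.8 ± 20.2 CPM (SD, n = 5 each; log2 fold change 0.21, adjusted p = 0.101 from edgeR), so named members of this list lay on both sides of 0.

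Genes that glucocorticoid induces through NR3C1 had the highest median of the 7 lists, 0.15, beside the log2 fold change of -0.0032 of Nr3c1 itself. Of 18 genes, 1 rose and 0 fell past the adjusted limit of edgeR (0.308% and 1.86% of all genes). A log2 fold change above 0 was found for 17 of the 18 (49.7% of all genes tested). At an unadjusted p-value under 0.05 from edgeR, 7 were higher (4.43% of all genes). Pdk4, the kinase that shuts off pyruvate dehydrogenase, rose from 375.8, 401.2, 341.1, 407.4 and 356.9 CPM in Control 1 to 5 to 450.2, 483.6, 448.3, 450.8 and 453.7 CPM in KO 1 to 5. Its KO libraries were all above the control libraries, and the log2 fold change was 0.28 with an interval of 0.17 to 0.39 (adjusted p = 0.0117 from edgeR). Fkbp5, a co-chaperone of the receptor, had 522.8 ± 53.2 and 620.6 ± 22.4 CPM (SD, n = 5 each) without overlap (log2 fold change 0.25, adjusted p = 0.0728 from edgeR). Among the others of the 7 were the metallothioneins Mt1 and Mt2 (0.28 and 0.29 on the log2 scale, adjusted p = 0.111 and 0.255 from edgeR) and Tsc22d3, the glucocorticoid-induced leucine zipper gene (0.17, adjusted p = 0.215 from edgeR). Leaving out both Control 4 and KO 1 gave 6 genes past the limit, DESeq2 gave 4, limma voom 4, and the fit with a replicate block 1.

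**Figure D5:**
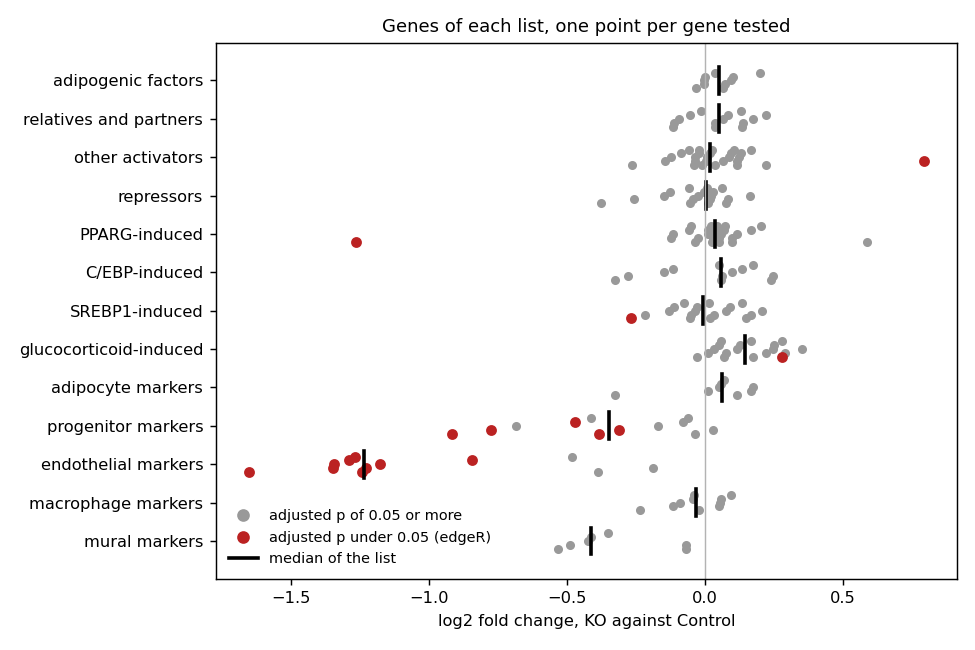
Log2 fold change of KO against control (horizontal axis) for the genes of each list, with 1 point per gene tested, red where the adjusted p from edgeR is under 0.05 and grey otherwise, and a black bar at the list's median. The 10 adipogenic factors sit between -0.03 and 0.20 with no red point, the glucocorticoid-induced genes are nearly all right of 0, and the endothelial markers lie far to the left with a median of -1.23.

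Mature adipocyte markers, among them Adipoq, Plin1 and Lipe, had 0 of 8 genes past the limit in edgeR and 3 higher at an unadjusted p-value under 0.05 (4.43% of all genes), with a median of 0.06. Their sums were 28390 to 29333 CPM in control and 29766 to 31834 CPM in KO libraries, of which Fabp4 alone made up 72.8%. Macrophage markers had 0 of 10 past the limit and 0 at an unadjusted p-value under 0.05, with a median of -0.03, and mural cell markers had 0 of 7 past the limit and 5 lower at an unadjusted p-value under 0.05 (7.46% of all genes), with a median of -0.41. Sums of the macrophage markers and of the mural cell markers overlapped between the groups. How far the shifts in markers of other cell types enter the values of the adipogenic factors and their targets was not tested.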

How the data were processed

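RNA-seq libraries of primary inguinal adipocytes (5 control and 5 KO) were prepared by the authors with the SMARTer and Nextera XT kits, which do not mark strand, mapped with STAR to GRCm38.p6 (mm10 in the labels) and counted by featureCounts on Ensembl genes; the strand setting is not given in the sources used here. The authors deposited these as raw counts, without normalization, filtering or pooling, and 0 columns belonged to other samples. Positions, exon lengths and starts came from GENCODE M21 on GRCm38, in which 52073 of the 56748 genes have a position, and promoters from RefSeq.

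From the deposited counts, edgeR 4.0.16 (R 4.3.3) applied filterByExpr (minimum count 10) and TMM, and tested KO against control over all 14270 genes without a block, by the quasi-likelihood test at a Benjamini-Hochberg adjusted limit of 0.05. The biological coefficient of variation was 9.35%. Log2 CPM used a prior count of 2. CPM means and SDs are over the 5 libraries of a group, intervals are 95% intervals from the fit, and exact permutation tests were 2-sided over all 252 assignments (smallest p 0.00794). Simulated counts, with 200 genes changed, were used to test the scripts. With 18949106 to 26237825 counts per library, counting error is larger for genes with few counts, among the named genes Hmga2, Hes1 and Gpihbp1.

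The factors and gene lists were chosen with earlier results of these data known, and 7 genes stand in 2 of the lists of induced genes. Other lists share genes too. Klf9 counts among the relatives, the activators and the glucocorticoid-induced genes. Lpin1 counts among the activators, the SREBP1-induced and the glucocorticoid-induced genes. The genes named in each of the 7 lists other than markers were the 2 with the smallest p-values. Fabp4, Mt1, Mt2, Tsc22d3 and Adipoq were added after their values were seen. The markers Pecam1, Cdh5, Plin1 and Lipe were also named outside that rule. Where 1 symbol stood for 2 rows (Ddit3), the row with more counts was used. Replicate numbers did not pair the libraries. Libraries of a group differed by more than sampling noise (chi-square per degree of freedom at least 3.52). Alternatives were DESeq2 1.42.0, voom with quality weights (limma 3.58.1), other scalings and filters, a replicate block, left-out libraries and another gene length.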

Additional observations from a re-analysis of the deposited data

Results flagged for a closer look

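Groups of 5 libraries were formed for the adipogenic factors, Fam20c and the other genes named by p-value. In 5 of 48 such groups 1 library lay far from the rest by Dixon's ratio. This ratio is the gap to the nearest library over the whole range, with a critical value of 0.71. Chance gives about 1 in 20, or 2.4 groups. Cebpd in Control 4 was at 23.8 CPM against 17.1 to 18.8 CPM in the other control libraries (ratio 0.750), and the log2 fold change without this library is 0.29 in place of 0.20. Srebf1 in Control 2 was at 484.9 CPM against 449.2 to 457.4 CPM (ratio 0.771). Zfp423 in KO 5 was at 37.1 CPM against 31.6 to 33.0 CPM (ratio 0.753). Agt in KO 3 was at 454.3 CPM against 394.4 to 409.1 CPM (ratio 0.755). Pdk4 in KO 2 was at 483.6 CPM against 448.3 to 453.7 CPM (ratio 0.845), on the side away from the control libraries.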

How the results depend on the processing

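No setting other than leaving out Control 4 brought any of the 10 factors past the limit. Values near 0 changed sign: Zfp423 was 0.0007 by DESeq2 and 0.0013 with RLE size factors, Nr3c1 0.0006 under both, 0.0179 by limma voom, 0.0012 with the replicate block and 0.0352 without Control 4 and KO 1 (-0.0201 for its difference on total counts), and Srebf1 -0.0041 with upper-quartile factors, -0.002 with at least 1 CPM in 5 libraries and -0.0011 with the block. Leaving out 1 library at a time gave log2 fold changes of -0.0347 to 0.028 for Srebf1, -0.0431 to 0.0402 for Zfp423, -0.0499 to 0.0502 for Nr3c1 and 0.162 to 0.2937 for Cebpd, the highest without Control 4; 164 to 323 genes were lower and 19 to 119 higher. Among genes higher in KO, 0 to 1 relatives, 0 to 2 activators, 0 to 2 PPARγ-induced, 0 to 1 C/EBP-induced, 0 to 1 SREBP1-induced and 1 to 5 glucocorticoid-induced genes passed the limit, and 0 to 1 SREBP1-induced genes were lower. The median log2 fold change changed sign for the activators (-0.0124 to 0.0688), repressors (-0.0321 to 0.0094) and SREBP1-induced genes (-0.043 to 0.0525), and kept it for the other 4 lists.

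Against 44 genes higher in KO by edgeR, DESeq2 gave 125, limma voom 111, the replicate block 21, and the fit without Control 4 and KO 1 145. DESeq2 called 2 relatives, 2 activators, 3 PPARγ-induced, 1 C/EBP-induced, 1 SREBP1-induced and 4 glucocorticoid-induced genes higher. limma voom called 2 relatives, 2 activators, 2 PPARγ-induced, 1 SREBP1-induced and 4 glucocorticoid-induced genes higher. Without Control 4 and KO 1, 2 relatives, 2 activators, 2 PPARγ-induced and 6 glucocorticoid-induced genes were higher. Upper-quartile factors gave 1 PPARγ-induced gene, and no filter on low counts gave 1 PPARγ-induced and 3 glucocorticoid-induced genes. The replicate numbers did not pair the libraries (correlations of same-numbered libraries from -0.251 to 0.263, 1 of 5 matching its own number best); with the block 0 SREBP1-induced genes were lower, Me1 having an adjusted p of 0.0599 from edgeR. With the longest transcript as length, levels were 109.8 RPKM for Pparg, 106.9 for Srebf1, 29.1 for Klf15, 29.2 for Rxra, 29.2 for Ebf1, 18.9 for Nr3c1 and 6.79 for Zfp423, the lengths being shorter by construction. The cause of the other shifts was not tested.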
